A study of Mus musculus with 12 samples.

Results

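The genes described here encode the subunits of AMPA and NMDA receptors, the ion channels through which glutamate excites neurons. They are the 10 genes Gria1, Gria2, Gria3 and Gria4 (4 AMPA receptor subunits) and Grin1, Grin2a, Grin2b, Grin2c, Grin2d and Grin3a (6 NMDA receptor subunits), chosen by name from the 47729 genes of the deposited table through their Ensembl identifiers, and all 10 had enough reads to be tested. Their levels were compared in bilateral amygdala tissue of 12 female C57/BL6 mice, with 1 stranded mRNA library per mouse, all sequenced in a single run with reads of 75 bp. No treatment or transgene is named for any mouse. The mice were bought at 7 weeks of age and passed an elevated plus maze (EPM) at 9 weeks, a light/dark (LD) box at 10 weeks and a three-chamber social interaction test (SIT) at 11 weeks. The labels place 3 mice in a less anxious group (mice 3, 7 and 12), 4 in an anxious group (mice 1, 4, 8 and 11) and 4 in a more anxious group (mice 2, 6, 9 and 10), while mouse 5 has no group. The study made these groups from tertiles of a principal component of the same expression data, so a difference between them is not independent of the values that formed them. The behavior scores were measured apart from expression, and they are used below as a separate set of comparisons.

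AMPA receptors are tetramers of the proteins GluA1 to GluA4 and carry most fast excitatory current. GluA2, the product of Gria2, makes the channel nearly impermeable to calcium once its transcript has been edited. NMDA receptors combine the obligatory subunit GluN1 (Grin1) with GluN2 subunits (Grin2a to Grin2d), which set the channel's kinetics, or with GluN3A (Grin3a), which lowers calcium entry. In the amygdala both receptor types serve the synaptic plasticity that underlies fear learning.

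Totals of the 11 grouped mice ran from 31745630 to 45142355 estimated counts (median 36578626), and the count of a member in one mouse ran from 378 reads for Grin2d to 28010 reads for Gria1. Levels are given as CPM, the count of a gene relative to the library total after TMM scaling, and levels of different genes are compared only as CPM per kb of exon.

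The members differ in base composition, which matters below because the difference between more and less anxious mice changed with GC content across all genes. Exon GC content, taken from the longest transcript of each gene, ran from 36.8% in Gria2 to 65.0% in Grin2d. As examples, stretches of 120 bases of coding sequence are printed 5′ to 3′ on the sense strand. Each lies within 1 exon and has a GC content close to that of the gene's whole coding sequence. They come from the members with the highest and the lowest GC, the obligatory subunit and the member with the lowest p-value between the groups. They do not reach the low end of the range, since the coding sequence of Gria2 has 44.7% GC. G and C are in capitals, and the build is GRCm38.
Grin2d (chr7:45862299-45862418, minus strand, 67.5% GC): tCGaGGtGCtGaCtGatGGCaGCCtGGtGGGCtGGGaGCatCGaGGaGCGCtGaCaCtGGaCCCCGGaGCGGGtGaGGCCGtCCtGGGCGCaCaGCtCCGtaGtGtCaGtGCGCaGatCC
Grin1 (chr2:25318695-25318814, minus strand, 55.8% GC): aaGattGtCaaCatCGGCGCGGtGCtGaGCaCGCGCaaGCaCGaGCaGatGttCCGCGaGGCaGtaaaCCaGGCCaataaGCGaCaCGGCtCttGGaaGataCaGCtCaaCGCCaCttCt
Grin3a (chr4:49792725-49792844, minus strand, 50.8% GC): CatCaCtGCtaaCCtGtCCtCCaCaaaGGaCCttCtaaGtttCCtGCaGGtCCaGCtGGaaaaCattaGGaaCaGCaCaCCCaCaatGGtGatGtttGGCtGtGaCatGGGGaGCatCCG
Gria2 (chr3:80741078-80741197, minus strand, 45.0% GC): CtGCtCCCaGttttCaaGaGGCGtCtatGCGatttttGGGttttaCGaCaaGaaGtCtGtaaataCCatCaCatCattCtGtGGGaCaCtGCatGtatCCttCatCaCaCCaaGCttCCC

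Per kb of exon, Gria1 had the highest level of the 10 subunits, at 97.7 ± 13.7 CPM per kb (SD, n = 11 mice, range 68.4 to 116). Grin1 (41.9 ± 5.01) and Gria2 (41.2 ± 2.49) came next and could not be ordered, since Grin1 was higher than Gria2 in 6 of 11 mice. Gria3 followed at 28.7 ± 2.16 and Gria4 at 17.6 ± 2.15, and the values of Gria3 overlapped with neither neighbor. Among the GluN2 genes, Grin2b stood at 12.2 ± 3.23, Grin2a at 8.06 ± 0.825, Grin2c at 7.77 ± 1.04 and Grin2d at 2.07 ± 0.331 CPM per kb. Grin3a, at 6.11 ± 0.913, lay between Grin2c and Grin2d. Grin2a exceeded Grin2c in 6 of 11 mice and Grin2c exceeded Grin3a in 10 of 11, so both pairs of neighbors overlapped, as did Gria4 and Grin2b because of mouse 6. Grin2d was the lowest of the 10 in each mouse.

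The order depended on the gene length used. With the longest coding transcript in place of the union of exons, Grin1 was at 95.1 ± 11.4 CPM per kb, and its range then overlapped that of Gria1 (106.5 ± 14.9). Gria3 moved to 54.5 ± 4.10, which overlapped Gria2 at 61.8 ± 3.73, and Grin3a (10.0 ± 1.50) moved to the level of Grin2a (9.88 ± 1.01). Gria1 stayed first and Grin2d last with either length.

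Gria1 made up 52.5% ± 3.69 (SD, n = 11) of the summed AMPA subunit level per kb, Gria2 22.3% ± 1.81, Gria3 15.6% ± 1.37 and Gria4 9.58% ± 1.32. Of the summed GluN2 level, Grin2b made up 40.2% ± 5.64, Grin2a 27.0% ± 3.59, Grin2c 25.9% ± 3.25 and Grin2d 6.92% ± 1.18. The shares also depended on the length used. With the longest coding transcript, Gria1 made up 43.6% of the AMPA level, Gria2 25.5%, Gria3 22.5% and Gria4 8.44%. Grin2b then made up 37.8% of the GluN2 level, Grin2a 30.1%, Grin2c 24.3% and Grin2d 7.73%. The other values of this paragraph are per kb of exon. The share of Gria1 was lowest in the more anxious mouse 10 (45.0%) and highest in the anxious mouse 8 (57.1%), and the 3 groups overlapped in each share other than that of Grin2d. The Grin2d share was 5.40 to 5.97% in less anxious, 6.86 to 8.26% in anxious and 5.36 to 8.65% in more anxious mice, so the less anxious and anxious mice did not overlap. How often these groups separate over all genes was not counted. The Grin2a to Grin2b ratio, which rises as cortical circuits mature, was 0.690 ± 0.150 over the 11 mice. It was 0.348 in the more anxious mouse 6 and 0.964 in the less anxious mouse 3, and 0.630 to 0.806 in the others. The summed level of the 4 AMPA subunits was 193 ± 9.99 CPM per kb in less anxious, 194 ± 8.56 in anxious and 171 ± 14.5 in more anxious mice. The less and more anxious mice did not overlap in this sum, by a narrow margin (lowest less anxious mouse 187.02, highest more anxious mouse 186.66). Of single genes with at least 1 CPM, 10.0% did not overlap between these groups, and 4.75% did not with more anxious mice lower. The summed NMDA subunit level was 78.6 ± 7.19, 77.8 ± 4.57 and 78.2 ± 10.4 CPM per kb in the same order, and the groups overlapped.

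**Figure D1:**
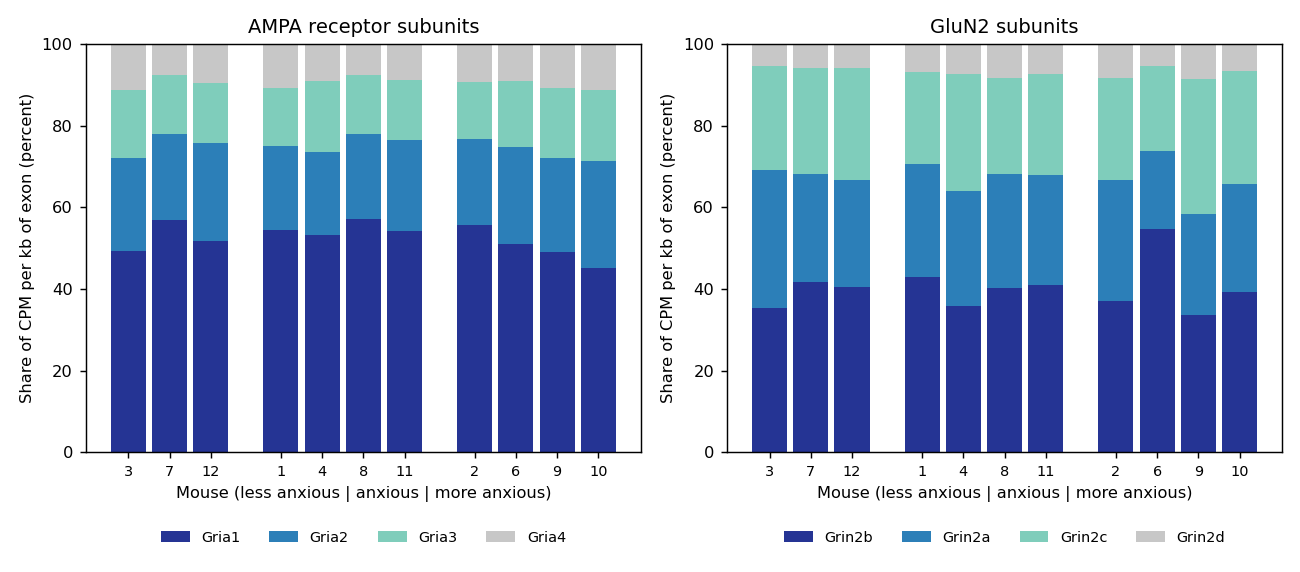
Share of each subunit in the summed CPM per kb of exon (vertical axis, percent) in each of the 11 mice (horizontal axis, ordered by group), for the AMPA subunits and for the GluN2 subunits. Gria1 is the largest AMPA share in each mouse (45.0% to 57.1%), and mouse 6 has the largest Grin2b share (54.6%).

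None of the 10 subunit genes passed an adjusted p of 0.05 in a comparison of the anxiety groups. With edgeR's quasi-likelihood test and Benjamini-Hochberg adjustment over 26963 genes, 0 of 10 were called for any change across the 3 groups, where 0.00742% of all genes were. Between more and less anxious mice 0 of 10 were called (0.0445% of all genes), between anxious and less anxious mice 0 of 10 (0.00371%) and between more anxious and anxious mice 0 of 10 (0.0%). DESeq2 also called 0 of the 10 in each of these comparisons. Over all genes it called 186, 304, 11 and 48 in the same order of comparisons. An unadjusted p under 0.05 for any change was found for 3 of the 10, namely Grin3a, Grin2d and Gria1, beside 6.35% of all genes. The same 3 genes had such a p between more and less anxious mice (8.83% of all genes), Grin2d alone between anxious and less anxious mice (4.74%), and Gria1 and Grin3a between more anxious and anxious mice (4.57%). The 3 contrasts share groups, so these counts are not separate pieces of evidence. Over the 10 members the median log2 difference of more minus less anxious mice was -0.08, with 7 below 0 and 3 above, beside a median of 0.00 over all genes tested.

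**Figure D2:**
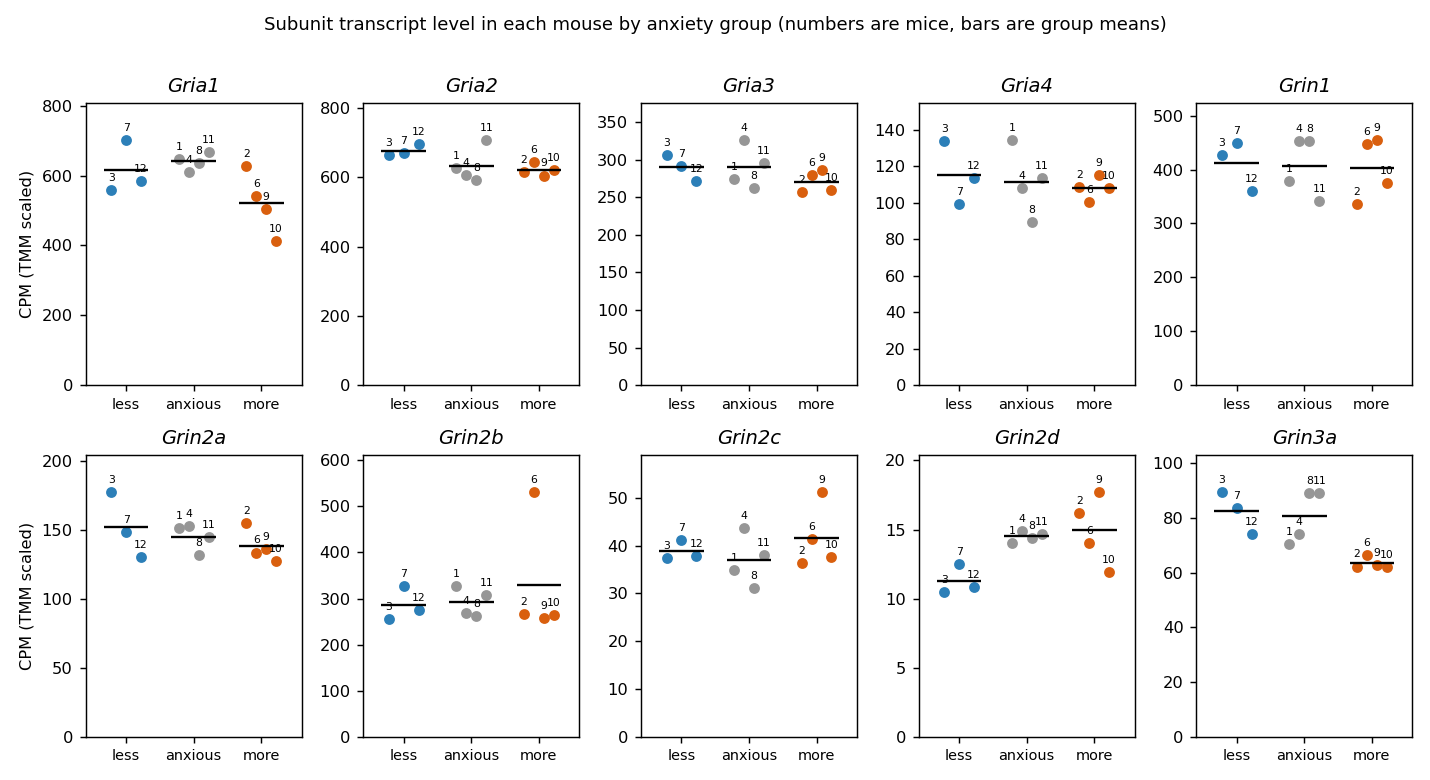
CPM of each subunit gene (vertical axes, starting at 0) in each of 11 mice by group (3 less anxious, 4 anxious, 4 more anxious), with points numbered by mouse and bars at the group means. The 4 more anxious mice lie below the 7 others for Grin3a (62.2 to 66.6 CPM), and mouse 6 stands apart for Grin2b (532 CPM).

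Grin3a encodes GluN3A, a subunit of immature synapses whose presence reduces the calcium permeability of NMDA receptors. Its level was 62.3, 66.6, 62.7 and 62.2 CPM in the more anxious mice 2, 6, 9 and 10. The less anxious mice 3, 7 and 12 had 89.7, 83.7 and 74.3 CPM, and the anxious mice 1, 4, 8 and 11 had 70.5, 74.3, 89.0 and 89.1 CPM. All 4 more anxious mice thus lay below all 7 others, a pattern shown by 0.321% of the 15891 genes with a mean of at least 1 CPM. Because the groups were cut from the same expression values, this share is a description of the groups and not a test. The log2 difference of more minus less anxious mice was -0.39 (SE 0.11, unadjusted p = 0.00294), and it did not pass the adjustment over all genes (edgeR's quasi-likelihood test, adjusted p = 0.282; DESeq2, adjusted p = 0.0605). The difference of more minus anxious mice was -0.35 (SE 0.10, edgeR adjusted p = 0.999), while anxious and less anxious mice differed by -0.04 (SE 0.11). Over the alternatives tried, the log2 difference of Grin3a between more and less anxious mice stayed between -0.46 and -0.30, with adjusted p between 0.0605 and 0.632. In bulk tissue, fewer cells of a type and less RNA per cell cannot be told apart, for Grin3a or any other member.

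Grin2d encodes GluN2D, a slowly deactivating subunit found in many interneurons. The less anxious mice 3, 7 and 12 had 10.5, 12.5 and 10.8 CPM. The anxious mice 1, 4, 8 and 11 had 14.0, 14.9, 14.4 and 14.7 CPM, and the more anxious mice 2, 6, 9 and 10 had 16.2, 14.0, 17.7 and 11.9 CPM. The less anxious mice lay below all 4 anxious mice, but the more anxious mouse 10 lay within the less anxious range. The share of all genes that separate less anxious from anxious mice was not counted, so no weight is put on this separation. The log2 difference of more minus less anxious mice was 0.40 (SE 0.14, unadjusted p = 0.0139, edgeR adjusted p = 0.421).

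Grin2d has the highest GC content of the 10 members, and the group difference varied with GC content across all genes. Across the genes with a mean of at least 1 CPM, the median log2 difference between more and less anxious mice ran from -0.08 in genes of 36 to 40% GC to 0.20 in the 588 genes of 60 to 64% GC and 0.55 in the 86 genes above 64%. Grin2d, at 65.0% GC, lay below the median of its own bin by 0.14 on the log2 scale. With an offset that removed the smooth relation of counts to GC in each mouse, its difference was 0.07 (SE 0.12, adjusted p = 0.938), beside 0.40 without it. Grin3a, at 49.2% GC, kept a difference of -0.37 (SE 0.10, adjusted p = 0.386) with the same offset. For Grin1 (59.4% GC) the difference went from -0.06 to -0.22 (SE 0.11), and for Grin2c (62.1% GC) from 0.11 to -0.12 (SE 0.11). Across the 10 members the Pearson correlation of GC with the difference was 0.534 without and -0.154 with the offset, and across 15827 genes it was 0.169 without it. These are descriptions across genes, which share the same 11 libraries.

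This relation to GC was also measured in each mouse. The median log2 deviation of 675 genes of at least 60% GC, minus that of 3560 genes of at most 44% GC, was -0.41, 0.07 and -0.25 in the less anxious mice 3, 7 and 12. It was -0.17, 0.06, 0.16 and -0.11 in the anxious mice 1, 4, 8 and 11, and 0.11, 0.21, 0.31 and -0.01 in the more anxious mice 2, 6, 9 and 10. Mouse 9 had the highest value and the highest Grin2d level, and mouse 3 the lowest of both. The order did not match throughout, since the anxious mice 1 and 11 had values below 0 with 14.0 and 14.7 CPM of Grin2d, above the 12.5 CPM of mouse 7. The part of GC content in the Grin2d values was not tested.

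**Figure D3:**
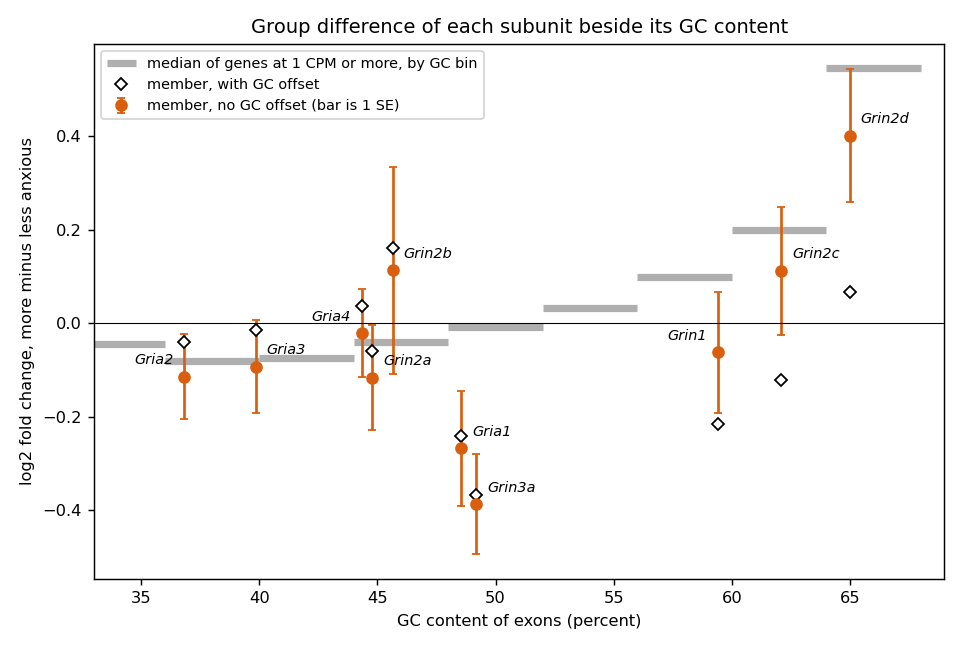
Log2 fold change of more minus less anxious mice (vertical axis) against exon GC content (horizontal axis, percent) for the 10 members, as filled points with bars of 1 SE, and as open diamonds with the GC offset. Gray bars are medians of genes with at least 1 CPM per GC bin, drawn to the edge of the plot for the outermost bins. Grin2d goes from 0.40 to 0.07 with the offset, and Grin3a from -0.39 to -0.37.

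Gria1 encodes GluA1, the subunit added to synapses in long-term potentiation. The more anxious mice 2, 6, 9 and 10 had 628, 540, 504 and 414 CPM. The less anxious mice 3, 7 and 12 had 560, 702 and 585 CPM, and the anxious mice 1, 4, 8 and 11 had 647, 611, 636 and 668 CPM. Mouse 10 was the lowest of the 11, whereas mouse 2 lay within the less anxious range, so the groups overlapped. The log2 difference of more minus less anxious mice was -0.27 (SE 0.12, edgeR adjusted p = 0.561), and that of more minus anxious mice was -0.30 (SE 0.11, edgeR adjusted p = 0.999). Without mouse 10 the difference between more and less anxious mice was -0.17, and without mouse 2 it was -0.35.

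Gria2 varied little. The less anxious mice 3, 7 and 12 had 664, 670 and 695 CPM, and the more anxious mice 2, 6, 9 and 10 had 614, 643, 605 and 622 CPM. These groups did not overlap, as was the case for 2 of the 10 members (Gria2 and Grin3a, both with lower values in more anxious mice) and for 10.0% of genes with at least 1 CPM, or 4.75% when counted in the same direction. The anxious mice 1, 4, 8 and 11, at 628, 606, 592 and 708 CPM, spanned both. The log2 difference of more minus less anxious mice was -0.11 (SE 0.09, edgeR adjusted p = 0.786), and -0.04 (SE 0.10) with the GC offset. Gria3 (257 to 326 CPM) and Gria4 (89.4 to 134 CPM) overlapped between the groups, with differences of -0.09 (SE 0.10) and -0.02 (SE 0.09). With the GC offset the difference of Gria3 was -0.01.

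Grin1, whose product is part of every NMDA receptor, ranged from 335 to 455 CPM, and its extremes were both more anxious mice (mouse 2 and mouse 9). Its difference of more minus less anxious mice was -0.06 (SE 0.13). Grin2a, the subunit of mature fast synapses, ranged from 128 to 178 CPM with a difference of -0.12 (SE 0.11). The Grin2a difference was -0.0049 without mouse 3, -0.22 without mouse 12 and -0.06 with the GC offset. Grin2c, which is known from cerebellum, thalamus and astrocytes, ranged from 31.1 to 51.3 CPM with a difference of 0.11 (SE 0.14). All 3 overlapped between the groups, and their edgeR adjusted p-values were between 0.831 and 0.941.

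Grin2b stood out through a single mouse. It encodes GluN2B, a subunit of early development that persists in forebrain neurons. The more anxious mouse 6 had 532 CPM, while the other 3 more anxious mice 2, 9 and 10 had 266, 258 and 263 CPM. The less anxious mice 3, 7 and 12 had 256, 327 and 276 CPM, and the anxious mice 1, 4, 8 and 11 had 327, 269, 262 and 308 CPM. Outside mouse 6 the level was 281 ± 28.4 CPM (SD, n = 10), and mouse 6 was 1.63 times as high as the next highest mouse. Of 15891 genes with at least 1 CPM, 12 exceeded their next highest mouse by this ratio in mouse 6, and of 2066 genes with at least 100 CPM only Grin2b and Gm26822, a long noncoding RNA gene, did. The log2 difference of Grin2b between more and less anxious mice was 0.11 (SE 0.22) with mouse 6 and -0.12 without it. Gm26653, an antisense gene that shares 49 bp of exon with Grin2b, was at 0.989 CPM in mouse 6 and at 0.50 to 1.59 CPM in the other mice.

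Behavior was compared with expression in a fit per measure, with each measure scaled to its SD. None of the 10 members was called for any of the 7 measures by edgeR or by DESeq2. With edgeR, 6 of the 70 pairs of member and measure had an unadjusted p under 0.05. DESeq2 called from 5 to 165 genes of the whole table, depending on the measure. Over all genes, edgeR called 0.00742% for percent time in the light, 0.0% each for percent distance in the light, percent open-arm time and total entries to the arms, and 0.015%, 0.0111% and 0.0223% for the social box to zone ratio at 3, 5 and 10 min. The shares of all genes with an unadjusted p under 0.05 were 3.55%, 5.8%, 5.84%, 6.97%, 7.65%, 6.56% and 8.05% in the same order of measures. The members with such a p were 1, 2, 1, 1, 1, 0 and 0 of 10.

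Grin2b accounted for 3 of these 6 pairs. Its slope was a log2 change of 0.25 per SD of time in the light (SE 0.05, unadjusted p = 3.0e-04, edgeR adjusted p = 0.580), 0.21 per SD of distance in the light (SE 0.07, adjusted p = 0.827) and 0.20 per SD of open-arm time (SE 0.07, adjusted p = 0.729). Mouse 6, labelled more anxious, had the highest value of the 11 grouped mice in all 3 measures, at 46.6% of time in the light, 41.9% of distance in the light and 29.2% of time on the open arms. Without mouse 6 the slopes of Grin2b were 0.06, 0.05 and 0.05 on the same scale. Without mouse 3 the slope on time in the light was 0.29, with an edgeR adjusted p of 0.0544. That was the lowest adjusted p of any member in the 203 combinations of comparison and setting. With DESeq2 on all 11 mice the adjusted p of this slope was 0.0582.

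**Figure D4:**
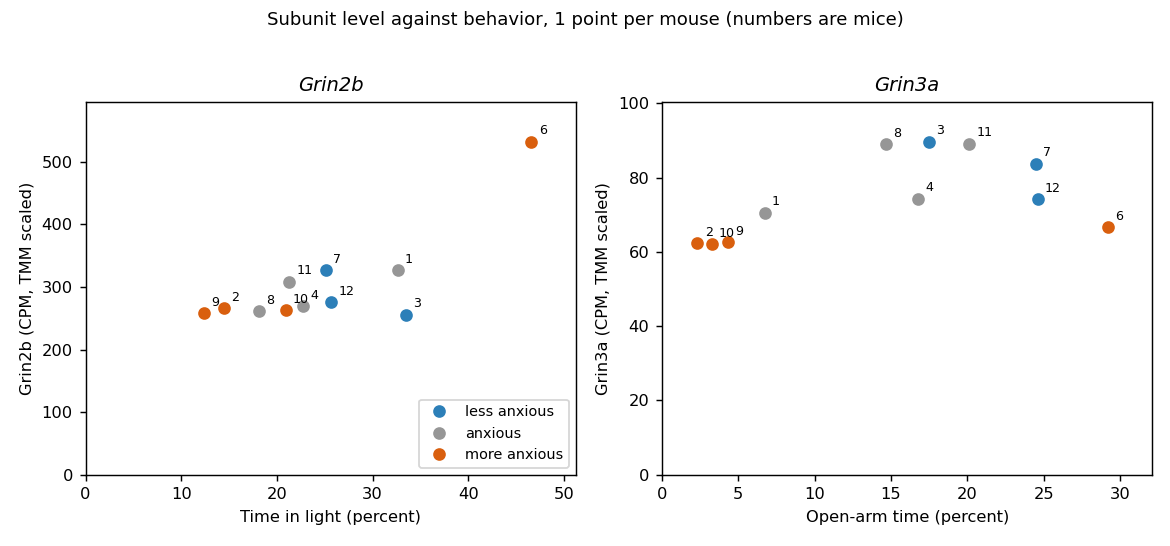
Grin2b CPM against percent time in the light and Grin3a CPM against percent open-arm time, with 1 numbered point per mouse (11 mice) colored by group. Mouse 6 lies alone at 46.6% and 532 CPM for Grin2b, and the other 10 mice lie between 256 and 327 CPM.

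The other 3 pairs were Grin2d with distance in the light (-0.14 per SD, SE 0.06, edgeR adjusted p = 0.848), Grin2d with total entries (-0.14, SE 0.06, adjusted p = 0.689) and Gria1 with the social ratio at 3 min (-0.14, SE 0.06, adjusted p = 0.600, 10 mice). With the GC offset the slope of Grin2d was -0.03 on distance in the light and -0.09 on total entries, and with mouse 5 included the slope on distance was -0.07. The 63 slopes of the 9 members other than Grin2b lay between -0.14 and 0.12. For Grin3a the slope on open-arm time was 0.12 (SE 0.06, edgeR adjusted p = 0.859). The more anxious mice 2, 9 and 10, with 62.2 to 62.7 CPM of Grin3a, spent 2.33 to 4.3% of the time on the open arms. Mouse 6 combined 66.6 CPM with 29.2%, and without it the Grin3a slope was 0.17 (edgeR adjusted p = 0.486). The slope was 0.09 without mouse 2, 0.10 without mouse 10 and 0.08 with mouse 5 included. Mouse 5 had 93.1 CPM of Grin3a when all 12 libraries were scaled together, and spent 7.34% of the time on the open arms.

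**Figure D5:**
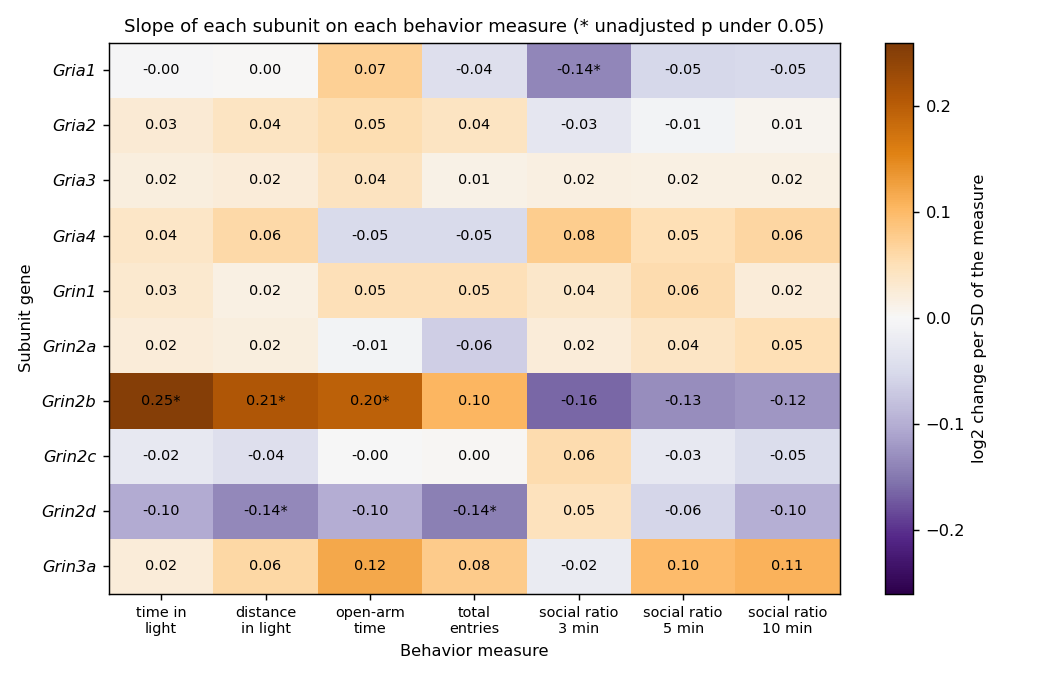
Slope of each of the 10 subunit genes (rows) on each of 7 behavior measures (columns), as log2 change per SD of the measure over 11 mice (10 for the ratio at 3 min), with an asterisk at an unadjusted p under 0.05. The 3 highest values, 0.25, 0.21 and 0.20, belong to Grin2b.

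Grin3b, the paralog of Grin3a, had 1 to 17 reads per mouse, too few for a statement on its group difference.

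Of 18 auxiliary and trafficking proteins of ionotropic glutamate receptors, 0 were called by edgeR and 11 had a difference above 0. Their median was 0.02, beside 0.00 over all genes tested. Prrt1, an AMPA receptor auxiliary protein, had 101 ± 17.0 CPM in less anxious, 138 ± 15.2 in anxious and 148 ± 18.9 in more anxious mice (log2 difference of more minus less 0.52, SE 0.11, edgeR adjusted p = 0.140), with an exon GC content of 62.5%. Prrt1 is in the list of significant genes that the study chose on these same mice with DESeq2, so it is not an independent example. Of 17 scaffolds and receptor-bound kinases, 0 were called by edgeR and 12 were above 0 (median 0.06). Dlg4, which encodes the scaffold PSD-95, had a difference of 0.41 (SE 0.16, edgeR adjusted p = 0.465), Homer2 0.35 (SE 0.12, adjusted p = 0.412) and Dlg2, which encodes PSD-93, -0.39 (SE 0.12, adjusted p = 0.336). Camk2a, the kinase subunit that phosphorylates GluA1, differed by 0.04 (SE 0.14).

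Of 13 genes of glutamate supply and uptake, 0 were called by edgeR. The difference was below 0 for 10 of them (median -0.12, beside 0.00 over all genes tested). The glial glutamate transporter gene Slc1a3 had 668 ± 86.9 CPM in less anxious, 539 ± 61.6 in anxious and 473 ± 27.6 in more anxious mice (log2 difference of more minus less -0.50, SE 0.12, edgeR adjusted p = 0.178). Slc1a3, like Prrt1, is in the study's own list of significant genes. Slc17a7, which loads glutamate into vesicles of cortical and basolateral amygdala neurons, differed by 0.44 (SE 0.17, adjusted p = 0.476). Adarb1, the enzyme that edits the Gria2 transcript, differed by -0.03 (SE 0.11).

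Markers of cell types also varied between the groups, although 0 of 54 marker genes in 13 lists were called by edgeR. The study, which used DESeq2 on these same mice, named Kcnj13 and Prl, markers here, as its most downregulated genes. It also placed Pomc in its opioid signaling pathway, and its list of significant genes holds Slc1a3. Defining markers of neurons, excitatory and inhibitory neurons, central amygdala, astrocytes, oligodendrocytes and microglia were present in each of the 11 libraries, as were markers of striatal projection neurons. The only markers at 0 in some library were 2 of the 3 pituitary genes. The summed CPM of 5 astrocyte markers, Slc1a3 among them, ran from 1063 to 1298 in less anxious, 894 to 1047 in anxious and 795 to 1011 in more anxious mice. For all 5 neuron markers the difference of more minus less anxious mice was above 0. Their sums were 3647 to 3917 CPM in less anxious, 3513 to 4160 in anxious and 3805 to 4792 in more anxious mice. The difference was below 0 for all markers of astrocytes (5), oligodendrocytes (5), their precursors (2), microglia (5) and endothelium (3). It was also below 0 for all inhibitory neuron (3) and striatal (6) markers, and the remaining lists held genes of both signs. The 5 excitatory markers summed to 781 to 1251, 1045 to 1204 and 1071 to 1595 CPM in less anxious, anxious and more anxious mice. Inhibitory neuron markers (3 genes) summed to 634 to 759, 564 to 816 and 510 to 780 CPM in the same order. Striatal markers (6 genes) summed to 181 to 529, 124 to 244 and 129 to 358 CPM. The 3 endothelial markers summed to 80.4 to 122 CPM in less anxious, 53.3 to 112 in anxious and 54.4 to 75.1 in more anxious mice. The 3 pituitary markers summed to 2.08 to 3.62 CPM in less anxious and 1.11 to 1.63 in more anxious mice. In the anxious group they ran from 1.88 to 55.7 CPM, and mouse 4 (55.7 CPM) and mouse 11 (13.7 CPM) stood above all other mice. Less and more anxious sums were thus apart for astrocytes, endothelium and pituitary. They overlapped for the 10 other lists, whose median log2 differences ran from -0.67 to 0.44. Of single genes with at least 1 CPM, 10.0% did not overlap between these groups. Among the astrocyte markers only Slc1a3 was apart, with at least 592 CPM in less anxious and at most 504 CPM in more anxious mice. No endothelial marker was apart on its own. The part of the marker genes in the values of Grin3a, Gria1 and Grin2d was not tested.

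The genes whose log2 CPM followed a member most closely over the 11 mice, out of 15891, were Rxra for Gria1 (Pearson r = 0.933), Wdr73 for Gria2 (0.917), Pef1 for Grin1 (0.926), Hspa5 for Grin2a (0.958) and Bcl2l13 for Grin2b (0.873). For Grin3a, which was added to this set after its values were seen, it was Zdhhc15 (0.892). The top of a ranking over so many genes is high by construction, and Bcl2l13 was, like Grin2b, highest in mouse 6 (55.7 against at most 45.2 CPM). Among the members themselves, Gria1 and Grin3a had the highest correlation of log2 CPM (0.586) and Gria2 and Grin2d the lowest (-0.54). These are descriptions over the same 11 libraries.

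Some members share exon sequence with other genes. Grin1os, an antisense gene, shares 1307 bp with Grin1 and had 224 to 404 reads per mouse, which was 1.27 to 2.37% of the Grin1 count in the 11 mice. Whether the counting used the strand is not given in the sources used here, so reads of the shared bases cannot be told apart by gene.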

How the data were processed

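RNA from the amygdalae of 12 mice was sequenced with 1 library each. The authors used cutadapt for trimming, STAR alignments to mm10 for quality control, and Salmon followed by tximport for gene-level abundance. The submitters' processing notes also name CASAVA and DESeq2. The authors deposited the estimated counts, without normalization and as whole numbers, for 47729 genes. The annotation release, tool versions and strand setting are not given in the sources used here. Gene symbols, exons and GC content came from GENCODE M21 (GRCm38), in which 47310 identifiers (99.1%) had an entry, and coding sequences came from its transcripts. Depth is unequal but high in all libraries, so counting error is small for each member.

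Tests used edgeR 4.0.16 in R 4.3.3 (quasi-likelihood, robust, TMM factors, a minimum of 10 reads per gene summed over mice, Benjamini-Hochberg adjustment, threshold 0.05), with the PC1 score as covariate for the groups and none for the 7 behavior measures. DESeq2 1.42.0 was an alternative, as were other size factors, filters, group coding, ranks, a GC offset (lowess span 0.4), mouse 5 and each mouse left out. Mouse 5, which has no group, entered only as an alternative. Log2 CPM used a prior count of 2. Descriptions used Python 3.11.15 with numpy 2.4.6, pandas 2.3.3 and matplotlib 3.10.9. The code was also run on simulated counts with planted changes. These had no GC trend and no groups made from expression, so that run does not bear on the differences of the members. The named genes were the 10 members, the pathway and marker lists as counts with examples, and for 6 members the genes most like them. Counts over the list of other ionotropic subunits are not reported here. Members and lists were chosen with earlier results of these data known. Each mouse is 1 sample, and p-values measure the spread between these mice.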

Additional observations from a re-analysis of the deposited data

Results flagged for a closer look

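Within the more anxious group, Grin2b was far higher in mouse 6 (531.97 CPM) than in the other 3 mice (258 to 266 CPM), a gap that was 0.968 of the group's whole range, above the critical value of 0.829 for 4 samples. In the same group Grin3a in mouse 6 (66.6 CPM) stood apart from the other 3 (62.2 to 62.7 CPM), with a ratio of 0.875, although it still lay below all 7 mice of the other groups. Of 20 sets of a member and a group of 4 that were examined in this way, these 2 exceeded the limit, and chance alone exceeds it in about 1 in 20.

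Mouse 5, which the study had already removed as an expression outlier, lay outside the range of the 11 grouped mice for 4 of the 10 members when all 12 libraries were scaled together. Gria2 was at 785.07 CPM (others 593 to 708) and Grin3a at 93.1 CPM (others 62.2 to 89.8). Grin1 was at 255 CPM (others 336 to 455) and Grin2d at 9.75 CPM (others 10.5 to 17.8). The other 6 members lay within the range. Mouse 5 had reads in 23768 genes, fewer than the 26378 to 28196 of the others.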

How the results depend on the processing

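No member was called in any of the 203 combinations of comparison and setting. The group comparisons of a setting shared a fit in edgeR, so these are not separate fits. Of 44 levels or shares under an alternative, 29 stayed the same and 15 moved. Slopes were followed under the alternatives only for the 6 pairs with an unadjusted p under 0.05 and for Grin3a on open-arm time. These were picked on the same data, and the signs of the other slopes were not followed. Of 308 such slopes or member differences of more minus less anxious mice under an alternative, 300 kept their sign. Those that turned were differences of more minus less anxious mice near 0: Gria4 0.037 and Grin2c -0.12 with the GC offset, and, with a mouse left out, Gria4 (-0.049 to 0.010), Grin1 (-0.18 to 0.031), Grin2b (-0.12 to 0.21) and Grin2c (-0.024 to 0.21). The cause was not tested. No paired analysis was possible because the replicate numbers are mouse numbers that no groups share.

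Counts of genes called over the whole table moved more. For any change across the groups (2) they were 9 with every gene of 1 read or more, 0 with filterByExpr, 1 without the robust option, 0 without PC1, 22 with groups as a number and 186 with DESeq2. For more against less anxious (12) they were 25, 0, 2, 3, 22 and 304 in the same order, and 4 with the GC offset. Anxious against less anxious (1) gave 0 with filterByExpr, 0 without PC1 and 11 with DESeq2, and more anxious against anxious (0) gave 48 with DESeq2. DESeq2 called 5, 22, 43, 38, 165, 43 and 111 genes for the 7 behavior measures in the order of the report. With every gene of 1 read, time in light gave 4, open-arm time 1 and the social ratios 11, 7 and 10. Ranks gave 0 for time in light and the ratios at 5 and 10 min. Mouse 5 gave 1 for time in light, 1 for open-arm time and 6 for the ratio at 5 min, the GC offset 1 for time in light and DESeq2 size factors 1 for open-arm time.

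With each mouse left out, counts ran from 0 to 4 (any change), 0 to 24 (more against less), 0 to 2 (anxious against less), 0 to 1 (more against anxious), 0 to 16 (time in light), 0 to 14 (distance), 0 to 3 (open arm), 0 to 5 (entries), and 1 to 6, 1 to 5 and 1 to 9 (ratios at 3, 5 and 10 min). The highest counts for time and distance in light came without mouse 6. Depth limited no member. Grin3b (1 to 17 reads) and several pituitary and choroid plexus markers had few reads.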
